A study of Mus musculus with 19 samples.

Results

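Interferon gamma is the leading cytokine of type 1 immunity, and the 10 genes described here encode this cytokine, the chains of its receptor, the transcription factors that drive its production, interleukin 18, and the receptor chains of interleukin 12 and interleukin 18, which induce it. They were chosen by name, as Ifng, Tbx21, Eomes, Ifngr1, Ifngr2, Il12rb1, Il12rb2, Il18, Il18r1 and Il18rap, and all 10 were found among the 27179 genes listed. All 10 also passed the filter on weak expression and were among the 14186 genes tested. Their levels were compared between the groups of mice with separated gonads and sex chromosomes (FCG mice) and set beside the level of Ighg2c in each mouse, the constant region gene of the IgG2c heavy chain.

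As background, natural killer (NK) cells and T cells secrete interferon gamma when interleukin 12 and interleukin 18, released by macrophages and dendritic cells, bind their receptors. Interleukin 12 signals through STAT4 and interleukin 18 through MYD88, and both converge with the T-box factors T-bet (Tbx21) and eomesodermin (Eomes) on the Ifng gene. Interferon gamma in turn changes transcription in the cells it reaches, and in B cells of C57BL/6 mice this cytokine and T-bet favour switching to IgG2c.

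FCG mice were bred from C57BL/6J females and B6.Cg-Tg(Sry)2Ei Srydl1Rlb/ArnoJ males, so that the testis-determining gene Sry was lost from the Y chromosome and present as a transgene on an autosome. Gonadal type and sex chromosomes are thereby inherited apart, which gave 5 XXF mice (ovaries, XX), 4 XYF mice (ovaries, XY), 5 XXM mice (testes, XX) and 5 XYM mice (testes, XY). All 19 mice received heat-killed bacteria of Streptococcus pneumoniae strain R36A (HKSP) by intraperitoneal injection, and their splenocytes were taken 7 days later, with red blood cells lysed, and no unimmunized mouse served as a control. Age at immunization was not given in the sources used here for these libraries. The transgene is carried by XXM and XYM mice alone, and a Y chromosome without its own Sry by XYF and XYM mice. One mRNA library was sequenced per mouse, with 11263753 to 19962022 reads counted on genes. The labels name a NEBNext Ultra kit and the methods a KAPA stranded kit. No batch was given, the running numbers in the library titles follow the groups, and an additional tag stands only in titles of XXM libraries, so that any effect of handling cannot be told apart from the groups.

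Values are log2(RPKM + 1), where RPKM relates the reads of a gene to its exon length and to the reads of the library, and the added 1 makes fold changes of genes with a low RPKM look smaller. Each gene was tested with limma, and it was called when its adjusted p (Benjamini-Hochberg over the 14186 genes) was under 0.1 with a change of over 1.5-fold, the thresholds given in the study's methods. Each p sets a difference, slope or correlation against the spread between these mice. Effects of handling that follow the groups are not covered by it. Leukocyte markers were present in all libraries. The summed RPKM of 7 B cell markers lay between 1252 and 3901 and that of 10 T cell markers between 363 and 1734, and no marker of the 9 lists examined was at 0 in every mouse.

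Ifng lies on chromosome 10 from 118441046 to 118445894 (GRCm38.p6) and was among the weakly expressed members, with 40 to 120 reads per mouse. Ifng expression was 2.16, 2.54, 2.33, 2.18 and 2.67 in XXF mice F1 to F5 and 1.98, 2.27, 2.71 and 1.87 in XYF mice F6 to F9. In males it was 2.44, 2.44, 2.52, 2.38 and 2.50 in XXM mice 2, 5, 6, 7 and 8, and 2.23, 1.95, 2.45, 2.50 and 1.61 in XYM mice 12, 13, 15, 16 and 9. The XXM mice lay close together (mean 2.46 ± 0.05, SD, n = 5), whereas XYM mice spread widely (2.15 ± 0.37, SD, n = 5) with low values in XYM 9 and XYM 13. All groups overlapped, and in the order of the means (XXM, XXF, XYF, XYM) no gap between neighbours exceeded the larger SD. The log2 difference between XX and XY mice, averaged over gonads, was 0.24 (SE 0.13, limma adjusted p = 0.262; exact two-sided permutation p = 0.0782), and Ifng was called in none of the comparisons. Between XYM and XYF mice its difference was -0.06 (SE 0.18) and between XXM and XXF mice 0.08 (SE 0.17).

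**Figure D1:**
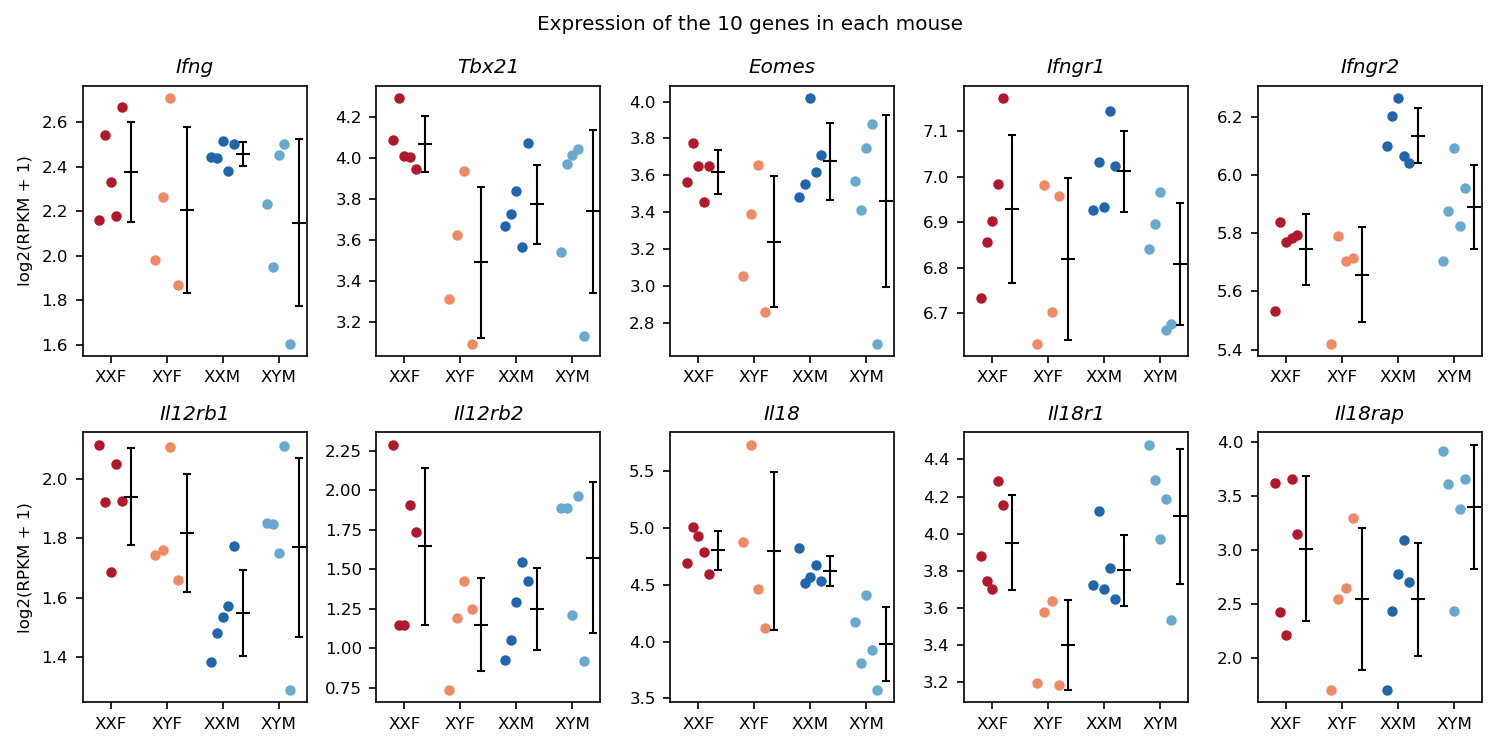
Expression of each of the 10 genes as log2(RPKM + 1) on the vertical axis, with 1 point per mouse and the groups XXF, XYF, XXM and XYM along the horizontal axis. Black bars give the group mean and SD. Ifng in XXM mice lies between 2.38 and 2.52, while the XYM mice reach from 1.61 to 2.50, and the vertical axes differ between genes.

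Tbx21, on chromosome 11 from 97098007 to 97115331, encodes T-bet, the factor that directs type 1 helper T cell and NK cell programs and that B cells use when they switch to IgG2c. It had 256 to 751 reads per mouse. Tbx21 expression was 4.09, 4.29, 4.01, 4.0 and 3.95 in XXF mice F1 to F5, and 3.31, 3.62, 3.93 and 3.09 in XYF mice F6 to F9. It was 3.67, 3.72, 3.84, 3.57 and 4.07 in XXM mice 2, 5, 6, 7 and 8, and 3.54, 3.97, 4.01, 4.04 and 3.13 in XYM mice 12, 13, 15, 16 and 9. Every XXF mouse lay above every XYF mouse, although XXF F5 (3.95) and XYF F8 (3.93) were almost level, and the male groups overlapped. In the order of the means (XXF, XXM, XYM, XYF) only the gap between XXF and XXM mice, 0.29, exceeded the larger SD. XXF mice stood 0.58 above XYF mice (log2 difference, SE 0.19; exact two-sided permutation p = 0.00794), which corresponds to a ratio of RPKM + 1 of 1.49. After adjustment over all genes it was not called (limma adjusted p = 0.138), and it was called without XYF F7 (0.62) or without XYF F8 (0.72), with adjusted p between 0.0606 and 0.468 over all alternatives. Between XXM and XYM mice the difference was 0.03 (SE 0.17), and the XX effect in females exceeded that in males by 0.54 (SE 0.25, adjusted p = 0.233). Without XYM 9 that difference of effects was 0.69 and was called.

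Eomes, the related T-box factor of NK and memory CD8 T cells, lies on chromosome 9 from 118478186 to 118486132. Its expression was 3.62 ± 0.12 (SD, n = 5) in XXF, 3.24 ± 0.35 (SD, n = 4) in XYF, 3.68 ± 0.21 (SD, n = 5) in XXM, and XYM mice had 3.46 ± 0.47 (SD, n = 5), from 306 to 923 reads. The lowest values were those of XYM 9 (2.69) and XYF F9 (2.86), the same mice that were lowest for Tbx21 and Ifng. Averaged over gonads, Eomes differed by 0.30 between XX and XY mice (SE 0.14, limma adjusted p = 0.208; exact permutation p = 0.0452), and it was not called. Reads from Eomes and from the overlapping gene Gm33408 cannot be told apart where strand was not used in counting, and the strand setting was not given in the sources used here.

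Over the 19 mice the T-box factors and Ifng varied together. Pearson's r was 0.86 between Ifng and Eomes, 0.81 between Tbx21 and Eomes and 0.67 between Ifng and Tbx21, and after centring each gene on its group means the values were 0.88, 0.84 and 0.75. Among all tested genes, those most alike to Ifng were Eomes (0.86), Il2rg (0.84), Cd2 (0.84), Gimap7 (0.83) and Ldb1 (0.83), as Pearson's r over 19 mice. Centred on group means, the nearest genes were Plekha2 (0.91), Samd3 (0.89), Gm19980 (0.89), Irf1 (0.89) and Aida (0.89), of which Irf1 is itself a transcription factor gene induced by interferon gamma. For Tbx21 they were Galnt12 (0.88), Evl (0.86), Ldb1 (0.85), Ncald (0.84) and Gimap3 (0.84), and centred on group means Evl (0.89), Fuz (0.87), Ldb1 (0.87), Mllt6 (0.87) and H2-Q4 (0.87).

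Markers of several cell types moved with Ifng, Tbx21 and Eomes. Of the 10 NK cell markers, all tested, 8 were called between XXF and XYF mice and 5 between XXM and XYM mice, each time higher in XX. The summed RPKM of these markers was 587, 678, 646, 750 and 734 in XXF mice F1 to F5 and 289, 424, 300 and 171 in XYF mice F6 to F9. It was 608, 505, 576, 571 and 507 in XXM mice 2, 5, 6, 7 and 8, and 325, 321, 470, 260 and 147 in XYM mice 12, 13, 15, 16 and 9. The most abundant of these markers was Gzma, which encodes granzyme A, and within each gonadal type all XX mice stood above all XY mice. The mean log2 level of the NK cell list correlated with Ifng (r = 0.65), Tbx21 (0.70) and Eomes (0.76) over the mice, and r was 0.62, 0.65 and 0.74 after group centring. Other lists had centred r of similar size with Ifng, Tbx21 and Eomes, namely 0.71, 0.63 and 0.70 for T cell markers and 0.66, 0.65 and 0.73 for B cell markers. They were -0.69, -0.54 and -0.68 for proliferation markers and -0.69, -0.48 and -0.68 for erythroid markers. As measured, r was 0.22, 0.40 and 0.14 for T cell markers and 0.45, 0.47 and 0.66 for B cell markers. For proliferation markers it was -0.64, -0.56 and -0.75, and for erythroid markers -0.37, -0.33 and -0.55. Measured in a mixture of cells, these values cannot separate fewer cells of a type from less RNA per cell, and the part of cell numbers in the levels of Ifng, Tbx21 and Eomes was not tested.

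**Figure D2:**
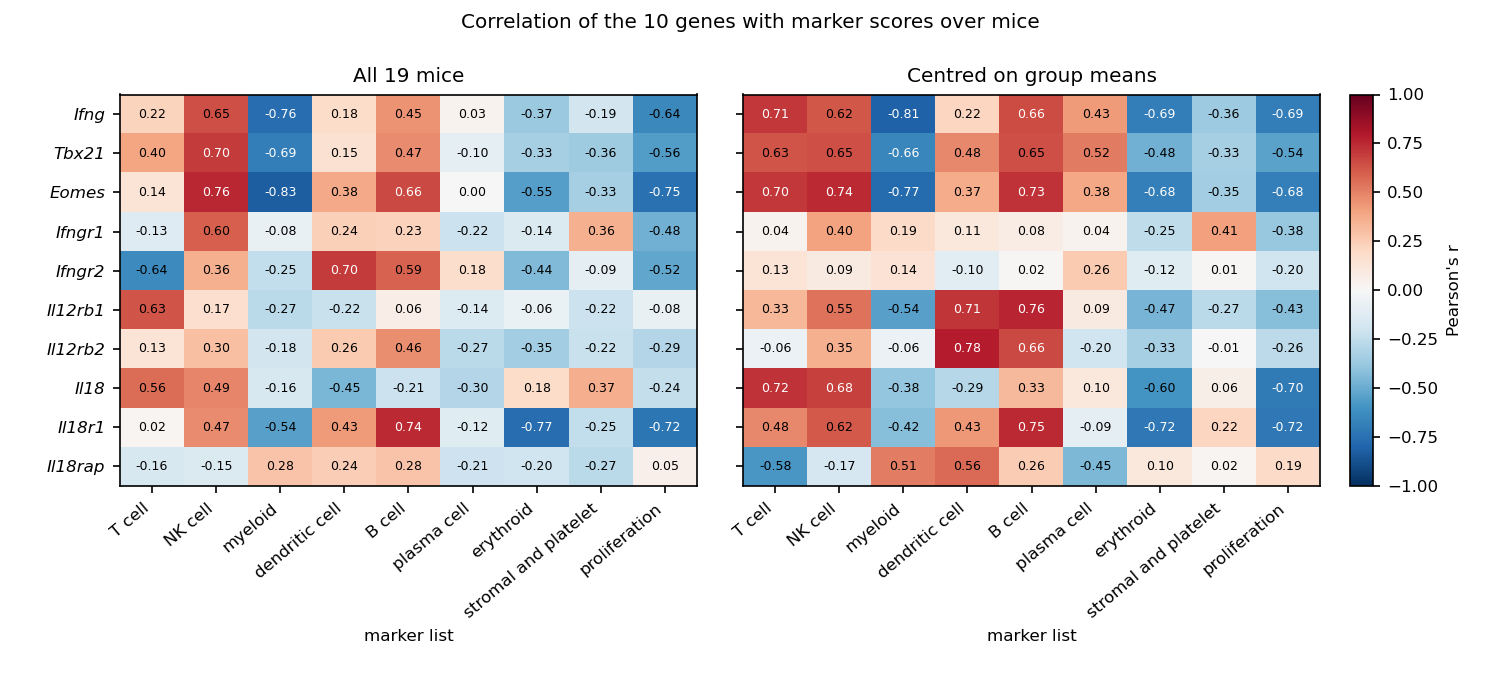
Pearson's r between each of the 10 genes (down) and the mean log2 level of each of 9 marker lists (across), over 19 mice as measured (left) and centred on group means (right). Colour runs from -1 (blue) to 1 (red), and Eomes ranges from -0.83 with myeloid markers to 0.76 with NK cell markers in the left panel.

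Myeloid markers ran the other way. Their mean log2 level had an r of -0.76 with Ifng, -0.69 with Tbx21 and -0.83 with Eomes, with -0.81, -0.66 and -0.77 after group centring. The summed RPKM of the 10 myeloid markers, led by S100a9, was 45974.5 in XYF F9 and 46662 in XYM 9, and between 3286 and 16341 in the other mice. Of these markers 0 were called between XXF and XYF mice and 0 between XXM and XYM mice by limma, and 3 and 0 had an unadjusted p under 0.05. Between XYM and XYF mice 1 of the 10 was called lower (list median -0.49), and 4 had an unadjusted p under 0.05. In males averaged over sex chromosomes 1 was called lower (list median -0.39), and 3 had an unadjusted p under 0.05. Of all genes 15.8% and 7.32% were called there. The 6 erythroid markers tested, led by Hba-a1, summed to 16316 in XYF F6 and 13303 in XYF F9 and to between 438 and 5946 in the other mice, although red blood cells had been lysed. The 10 genes were also compared with XYF F9 and XYM 9 left out, as given with each count below, a choice made after the marker levels were seen. The r with the marker lists were not computed without these mice.

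The receptor chains for interferon gamma were the most abundant members per length. Ifngr1, the ligand-binding chain (chromosome 10, 19591949 to 19610229), had a mean RPKM of 121 in XXF, 113 in XYF, 128 in XXM and 112 in XYM mice, from 2324 to 5302 reads. Between XX and XY mice its log2 difference averaged 0.16 (SE 0.07, limma adjusted p = 0.204; exact permutation p = 0.0306) and was not called. Ifngr2, the signalling chain on chromosome 16 (91547059 to 91564007), was expressed at 5.53, 5.84, 5.77, 5.79 and 5.79 in XXF mice F1 to F5 and at 5.42, 5.79, 5.71 and 5.71 in XYF mice F6 to F9. In XXM mice 2, 5, 6, 7 and 8 it was 6.10, 6.20, 6.26, 6.07 and 6.04, and in XYM mice 12, 13, 15, 16 and 9 it was 5.70, 5.88, 6.09, 5.82 and 5.95. Every XXM mouse lay above every XXF mouse, and the 3 highest values belonged to the XXM group. In the order of the means (XXM, XYM, XXF, XYF) the gaps from XXM to XYM (0.24) and from XYM to XXF (0.15) exceeded the larger SD.

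The promoter of Ifngr2 is shown because it alone among the 9 genes with a window held the T-box letters AGGTGTG. They were searched on both strands in the RefSeq window (GRCm38.p6) from 250 bases before to 50 bases after each start. Windows were available for 9 of the 10 genes, with 11 start sites in all, and Il12rb1 was the gene without an entry. The letters were found in 1 of the 11 windows and in 5.84% of all 32851 windows. The 250 bases before the start of Ifngr2 are given 5′ to 3′ on the plus strand, on which the gene lies, at chr16:91546809-91547058, with the match in capitals and its first base 141 bases before the start.
Ifngr2: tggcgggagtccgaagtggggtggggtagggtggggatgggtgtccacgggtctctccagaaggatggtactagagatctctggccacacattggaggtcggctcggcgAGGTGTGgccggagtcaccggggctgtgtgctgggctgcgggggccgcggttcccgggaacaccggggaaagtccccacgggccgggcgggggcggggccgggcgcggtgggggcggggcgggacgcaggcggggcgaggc
A match of letters describes the window and was not tested as a binding site.

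Ifngr2 differed by gonadal type. The log2 difference between males and females averaged over sex chromosomes was 0.31 (SE 0.07, limma adjusted p = 0.00282; exact permutation p = 0.000189), that between XXM and XXF mice 0.39 (SE 0.09, adjusted p = 0.0132) and that between XYM and XYF mice 0.23 (SE 0.10, adjusted p = 0.0741). The last value fell to 0.15 without XYF F6, and its adjusted p was between 0.00986 and 0.272 over the alternatives. These changes were under 1.5-fold, so that Ifngr2 was not called. Averaged over gonads, XX and XY mice differed by 0.17 (SE 0.07, adjusted p = 0.155), and XXM minus XYM alone gave 0.24 (SE 0.09, adjusted p = 0.118). Over the mice, Ifngr2 had an r of 0.70 with the dendritic cell list and -0.64 with the T cell list, and of -0.10 and 0.13 once centred on group means. Dendritic cell markers (7 tested, most abundant Itgax) were called higher in 4 of 7 genes in males averaged over sex chromosomes. T cell markers (10 tested, most abundant Trac) were called lower in 9 of 10. The r of Ifngr2 was 0.59 with the B cell list (5 of 7 called higher in males), -0.44 with the erythroid list (6 of 6 lower) and -0.52 with the proliferation list (3 of 6 lower). Centred on group means these r were 0.02, -0.12 and -0.20. The part of these cells in the difference of Ifngr2 was not tested.

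The receptor chains for interleukin 12 were the weakest members. Il12rb1 (chromosome 8, 70808360 to 70823542), shared with the interleukin 23 receptor, had 56 to 173 reads and a level of 1.94 ± 0.16 (SD, n = 5) in XXF, 1.82 ± 0.20 (SD, n = 4) in XYF, 1.55 ± 0.14 (SD, n = 5) in XXM, and XYM mice had 1.77 ± 0.30 (SD, n = 5). Between XXM and XXF mice it differed by -0.39 (SE 0.14, limma adjusted p = 0.103; exact permutation p = 0.0159), which was not called. Il12rb2 (chromosome 6, 67285986 to 67376293), the chain that recruits STAT4 and marks type 1 helper T cells, had only 22 to 191 reads, and it overlaps Serbp1 and LOC115490490, so that reads of these genes may be shared. Its level was 1.64 ± 0.50 (SD, n = 5) in XXF, 1.15 ± 0.29 (SD, n = 4) in XYF, 1.25 ± 0.26 (SD, n = 5) in XXM, and XYM mice reached 1.57 ± 0.48 (SD, n = 5). XX minus XY came to 0.49 in females (SE 0.25) and -0.32 in males (SE 0.24), and the effect in females minus that in males was 0.82 (SE 0.35, limma adjusted p = 0.193). That value was called with array weights or without XYM 9.

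Il18 encodes interleukin 18, a cytokine made mainly by macrophages and dendritic cells, and lies on chromosome 9 from 50554700 to 50581841. It had 180 to 778 reads, part of which may belong to the overlapping genes Bco2 and Tex12. Il18 expression was 4.69, 5.01, 4.93, 4.79 and 4.60 in XXF mice F1 to F5, and 4.88, 5.74, 4.46 and 4.12 in XYF mice F6 to F9. In XXM mice 2, 5, 6, 7 and 8 it was 4.83, 4.51, 4.57, 4.68 and 4.53, and in XYM mice 12, 13, 15, 16 and 9 it was 4.17, 3.81, 4.41, 3.93 and 3.57. The XYM mice were the lowest group and lay entirely below the XXM mice, while XYF mice were spread from XYF F7, the highest mouse of all, to XYF F9, which lay among the XYM values. In the order of the means (XXF, XYF, XXM, XYM) only the last gap between neighbours (0.65) exceeded the larger SD, and XXM minus XXF was -0.18.

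Il18 was called lower in XYM than in XYF mice (log2 difference -0.82, SE 0.23; limma adjusted p = 0.0165; exact permutation p = 0.0397; ratio of RPKM + 1 0.566). Without XYF F7, the mouse with the highest level, it was -0.51 with an adjusted p of 0.0458 and was no longer over 1.5-fold. Between XXM and XYM mice Il18 differed by 0.65 (SE 0.22, exact permutation p = 0.00794, the smallest that these group sizes allow), which missed the threshold at a limma adjusted p of 0.102. That difference was called in 7 of 33 alternatives (without XYF F7, XYF F9 or XYM 15, and with median ratio rescaling, quantile normalization, array weights or the compared groups alone), with adjusted p between 0.00916 and 0.242 over all of them. Averaged over sex chromosomes Il18 was 0.50 lower in males (log2 difference -0.50, SE 0.16, adjusted p = 0.0270), under 1.5-fold. It was -0.61 and called without XYF F9, and -0.34 without XYF F7.

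Il18r1 and Il18rap encode the ligand-binding and the signalling chain of the interleukin 18 receptor and are neighbours on chromosome 1, from 40465552 to 40500854 and from 40515362 to 40551707. Il18r1 had 439 to 1774 reads. Its level was 3.88, 3.74, 3.70, 4.28 and 4.15 in XXF mice F1 to F5, and 3.19, 3.58, 3.64 and 3.19 in XYF mice F6 to F9. It was 3.72, 4.12, 3.70, 3.81 and 3.65 in XXM mice 2, 5, 6, 7 and 8, and 4.48, 4.29, 3.97, 4.19 and 3.53 in XYM mice 12, 13, 15, 16 and 9. All XYF mice lay below all XXF mice, and of the XYM mice only XYM 9 fell into the XYF range. The order of the means was XYM, XXF, XXM and XYF, where only the last gap (0.40) exceeded the larger SD.

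Il18r1 was higher in XYM than in XYF mice, by 0.69 (SE 0.17, limma adjusted p = 0.00989; exact permutation p = 0.0317; ratio of RPKM + 1 1.62), and this call held in 33 of 33 alternatives. Between XXF and XYF mice the difference was 0.55 (SE 0.17, exact permutation p = 0.0159) with an adjusted p of 0.134, called without XYF F7 or XYF F8 or with array weights, and XXM minus XYM gave -0.29 (SE 0.16). The effect of XX in females minus that in males was 0.84 (SE 0.24, adjusted p = 0.132 over all genes). It was called without XXF F3, XYF F8, XYM 15 or XYM 9, without XYF F9 and XYM 9 together, and with limma array weights, and its adjusted p was between 0.0225 and 0.256 over the alternatives.

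Il18rap had 63 to 557 reads. Its SD was the largest of the 10 genes in XXF, XXM and XYM mice, while in XYF mice that of Il18 was larger (0.70 against 0.65). The level of Il18rap was 3.62, 2.42, 2.21, 3.66 and 3.15 in XXF mice F1 to F5, and 1.70, 2.54, 2.65 and 3.29 in XYF mice F6 to F9. In XXM mice 2, 5, 6, 7 and 8 it was 1.70, 2.43, 2.77, 3.09 and 2.70, and in XYM mice 12, 13, 15, 16 and 9 it was 3.92, 3.61, 2.43, 3.38 and 3.65. Within each group the levels were spread over more than 1 log2 unit, all groups overlapped, no gap between means exceeded the larger SD, and XYM 15 lay far below the other XYM mice.

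Il18rap was called higher in XYM than in XYF mice (log2 difference 0.85, SE 0.37; limma adjusted p = 0.0905; exact permutation p = 0.0794). This call was lost in 16 of 33 alternatives (without XXF F5, XYF F6, XYF F7, XYF F8, XXM 5, XXM 6, XXM 8, XYM 12, XYM 13, XYM 16 or XYM 9, with no filter, median ratio rescaling, the compared groups alone or limma-voom, and at an adjusted p of 0.05), with adjusted p between 0.0266 and 0.304 over all of them, and the difference fell to 0.57 without XYF F6. Between XXM and XYM mice the difference was -0.86 (SE 0.35, limma adjusted p = 0.139; exact permutation p = 0.0476), and the XX effect in females minus that in males was 1.32 (SE 0.51, adjusted p = 0.166). With array weights or without XYM 15 both values were called, and the second also without XXF F3. Il18rap had an r of 0.75 with Il12rb2 over the mice (0.72 centred on group means), against 0.51 with Il18r1 (0.31 centred) and -0.57 with Il18 (-0.46 centred). Other tested genes had a higher r with Il18rap and with Il12rb2, as given under other observations. Il18rap also had an r of 0.68 with the log2 library size, the largest of the 10 genes, and its relation to depth was not tested further. The r with library size was 0.46 for Il12rb2 and -0.48 for Il18.

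**Figure D3:**
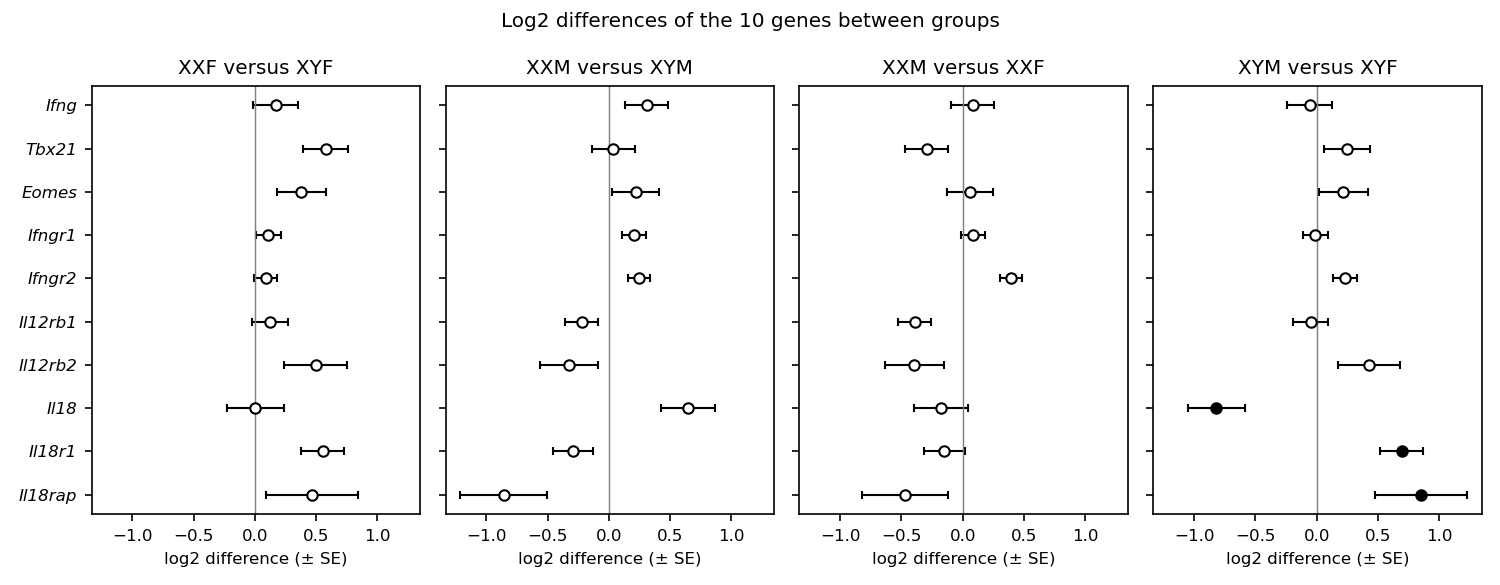
Log2 differences (points) with SE (bars) of the 10 genes, in log2(RPKM + 1), for XXF minus XYF, XXM minus XYM, XXM minus XXF and XYM minus XYF mice. Filled points mark the 3 called differences, Il18 (-0.82), Il18r1 (0.69) and Il18rap (0.85) between XYM and XYF mice. Neighbouring panels share groups.

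Markers of other cells differed between XYM and XYF mice as well. Of the B cell markers, led by Cd79b, 7 of 7 were called higher in XYM mice, as were 4 of 7 dendritic cell markers. Called lower were 6 of 6 erythroid markers, 7 of 10 T cell markers, 3 of 6 proliferation markers and 3 of 5 stromal and platelet markers tested. Of 10 NK cell markers 2 were called higher, and of 10 myeloid markers 1 was called lower (list median -0.49). Of 8 plasma cell markers 1 was called higher and 1 lower. Of all tested genes 15.8% were called in this comparison. The summed RPKM of the B cell markers was 1419, 2327, 2443 and 1252 in XYF mice F6 to F9 and 3558, 2920, 3571, 3344 and 2104 in XYM mice 12, 13, 15, 16 and 9. Il18r1 had an r of 0.74 with the B cell list and -0.77 with the erythroid list (0.75 and -0.72 centred on group means), while Il18 had one of 0.72 with the T cell list and 0.68 with the NK cell list after centring. The centred r of Il18 was -0.70 with the proliferation list, -0.60 with the erythroid, -0.38 with the myeloid and -0.29 with the dendritic cell list. As measured, r of Il18 was 0.56 (T cell), 0.49 (NK cell), -0.16 (myeloid) and -0.45 (dendritic cell). Il18rap had a centred r of -0.58 with the T cell list, 0.56 with the dendritic cell list and 0.51 with the myeloid list. As measured these were -0.16, 0.24 and 0.28. The part of these cells in the differences of Il18, Il18r1 and Il18rap was not tested.

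Over the 10 genes, the number called was 0 between XXF and XYF mice, where 1.38% of all tested genes were called, and 0 between XXM and XYM mice, where 2.96% were. It was 0 for XX against XY mice averaged over gonads (1.72% of all genes), 0 for males against females averaged over sex chromosomes (7.32%) and 0 between XXM and XXF mice (4.22%). Between XYM and XYF mice it was 3 of 10, against 15.8% of all genes, and for the difference between the XX effects in females and males it was 0, against 0.0846%. At an unadjusted p under 0.05 in limma, 2 of the 10 passed in XXF against XYF mice (18.7% of all genes), 3 in XXM against XYM (27.1%) and 4 averaged over gonads (22.8%). The same count was 4 for males against females (41.7%), 2 in XXM against XXF (19.8%), 4 in XYM against XYF (42.4%) and 4 for the difference of effects (21.0%). For XX against XY averaged over gonads it was 1 with median ratio rescaling (2916 of all genes). It was 2 with quantile normalization (3200) and 2 with library sizes without immunoglobulin genes (2954). With each mouse left out it was between 0 (without XYF F6, 3165 of all genes) and 6 (without XYM 15, 4034). limma-voom on whole reads called 0 of the 10 in each comparison except XYM against XYF, where it called 2, beside 2921 of all 14186 genes. With XYF F9 and XYM 9 left out the counts were 4 between XYM and XYF mice (3129 of all genes), 1 for the difference of effects (782 of all genes) and 0 in the other group comparisons. Settings that added calls among the 10 for the difference of effects also raised the calls over all genes, from 12 to 1910 with array weights and to 1694 without XYM 9.

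The median log2 difference of the 10 genes between XXF and XYF mice was 0.27, where that of all tested genes was 0.06. Between XXM and XYM mice it was 0.12 (all genes 0.01), between XXM and XXF mice -0.16 (all genes -0.01) and between XYM and XYF mice 0.23 (all genes 0.02). These comparisons share groups, since the XYF mice stand in the first and the last and each XX group in a pair of them.

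Ighg2c (chromosome 12, 113287389 to 113288932) had 1268 to 28652 reads. Its level was 7.82, 9.37, 8.56, 7.80 and 8.24 in XXF mice F1 to F5 and 9.96, 9.64, 10.63 and 10.29 in XYF mice F6 to F9. It was 6.71, 7.35, 7.29, 6.21 and 7.83 in XXM mice 2, 5, 6, 7 and 8, and 8.81, 9.91, 8.90, 10.22 and 8.39 in XYM mice 12, 13, 15, 16 and 9. Within each gonadal type every XX mouse lay below every XY mouse, each gap between the group means exceeded the larger SD (XYF, XYM, XXF, XXM), and the log2 difference averaged over gonads was -1.97 (SE 0.28, limma adjusted p = 0.000626; exact permutation p = 6.3e-05). Ighg2c was also called lower in males averaged over sex chromosomes (-1.08, limma adjusted p = 0.00872). Of the 9 immunoglobulin constant genes it was the only 1 called lower there, while 4 were called higher (7.32% of all genes called). Mean levels in XXF and XXM mice were 8.40 and 10.54 for Ighg2b, 7.58 and 11.07 for Ighg3, and 5.81 and 7.06 for Ighg1. Ighg2c was called lower in XXM than in XXF mice too (-1.28, limma adjusted p = 0.0520), a call lost in 4 of 33 alternatives. Between XYM and XYF mice it differed by -0.88 and was not called (limma adjusted p = 0.101). Of the other immunoglobulin constant genes, Ighg2b (-1.40) and Ighg3 (-1.11) were called lower in XX mice by the average over gonads. Ighg3 differed by -2.14 between XXF and XYF mice and by -0.07 between XXM and XYM mice, where it was not called, and Ighg2b by -1.85 and, not called (adjusted p = 0.108), by -0.94. Ighg1 was called lower in XXF than in XYF mice (-1.21, adjusted p = 0.0962) and differed by -0.11 between XXM and XYM mice. By the average over gonads Ighg1 (-0.66), Igha (-0.81), Igkc (-0.54), Ighm (-0.48), Ighe (-0.43) and Ighd (-0.10) were not called. Of 8 plasma cell markers, 2 were called lower in XXF than in XYF mice (list median -0.44) and 0 between XXM and XYM mice (-0.24). The centred r of this list was 0.44 with Ighg2c and 0.52 with Tbx21, and the part of plasma cells in the level of Ighg2c and its relation to Tbx21 was not tested.

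Set against Ighg2c, the members gave different relations within groups and over all mice. In a fit with a mean for each group, Tbx21 had a slope of 0.28 log2 units per log2 unit of Ighg2c (SE 0.09), Eomes one of 0.23 (SE 0.11), Ifng one of 0.19 (SE 0.10) and Il12rb1 one of 0.14 (SE 0.08). After adjustment over 14185 genes limma called 0 of the 10 (adjusted p = 1.0 for each) and 0% of all genes. At an unadjusted p under 0.05 there were 2 of the 10, Tbx21 and Eomes, and 410 of all genes, and limma-voom was not run for the slope. On the level of Ighg2c minus Ighg1 there was 1 of the 10 (211 of all genes), and on that of Ighg2c minus Igkc 2 (670). Without XYM 9 the slope was 0.21 for Tbx21 and 0.12 for Eomes. The slopes of the other members lay between -0.19 and 0.03.

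After centring on group means, Pearson's r with Ighg2c over the 19 mice was 0.63 for Tbx21 (permutation p = 0.00738) and Spearman's rho 0.66 (permutation p = 0.00484), both two-sided with mice permuted inside groups. Adjusted over all 14185 genes both p were 1.0. Other constant genes had a centred r with Ighg2c of 0.71 (Ighm), 0.66 (Ighe), 0.55 (Igkc) and 0.37 (Ighg2b). It was 0.08 for Ighd, 0.01 for Igha, -0.01 for Ighg3 and -0.04 for Ighg1. Whether the relation of Tbx21 is particular to Ighg2c was not tested. The r of Tbx21 was 0.60 without the 2 mice whose Ighg2c lay farthest from the median (XXM 7 and XYF F8), and between 0.55 (without XYM 9) and 0.73 (without XYF F9) with each mouse left out. Eomes had a centred r of 0.48 (permutation p = 0.0604; rho 0.51, p = 0.0313) and Ifng one of 0.44 (permutation p = 0.0878; rho 0.43, p = 0.0786), with 0.47 and 0.41 without the 2 farthest mice. Without XYM 9 these values fell to 0.32 and 0.30.

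Without centring, r with Ighg2c was below 0 for Tbx21, Eomes and Ifng over the 19 mice. Pearson's r over all mice was -0.06 for Tbx21 (permutation p = 0.823; rho -0.04), -0.23 for Eomes (permutation p = 0.347; rho -0.09) and -0.17 for Ifng (permutation p = 0.480; rho -0.10). With each mouse left out it was between -0.14 (without XXM 7) and 0.12 (without XYF F9) for Tbx21, -0.34 (without XYM 16) and -0.10 (without XYF F9) for Eomes, and -0.35 (without XYF F8) and -0.07 (without XYF F9) for Ifng. Ifngr2 (r = -0.58, permutation p = 0.00899; rho -0.55) and Ifngr1 (r = -0.53, permutation p = 0.0199; rho -0.53) had the lowest values, with adjusted p of 0.195 and 0.271 for r, and Il12rb1 the highest (r = 0.47, permutation p = 0.0429; rho 0.39). None of the 10 passed an adjusted p of 0.1 while 1.67% of all genes did by r and 1.09% by rho. Ighm (r = 0.82) and Ighe (r = 0.79) were among the genes that passed. Centred on group means, the r of Ifngr2 was 0.10, between -0.02 (without XXF F1) and 0.19 (without XYM 15) with each mouse left out, and that of Il12rb1 0.44, with 0.27 without XYM 9. The centred r of Ifngr1 was -0.17, with -0.06 without XYM 16, -0.31 without XYM 9 and -0.35 without XYF F9 and XYM 9.

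**Figure D4:**
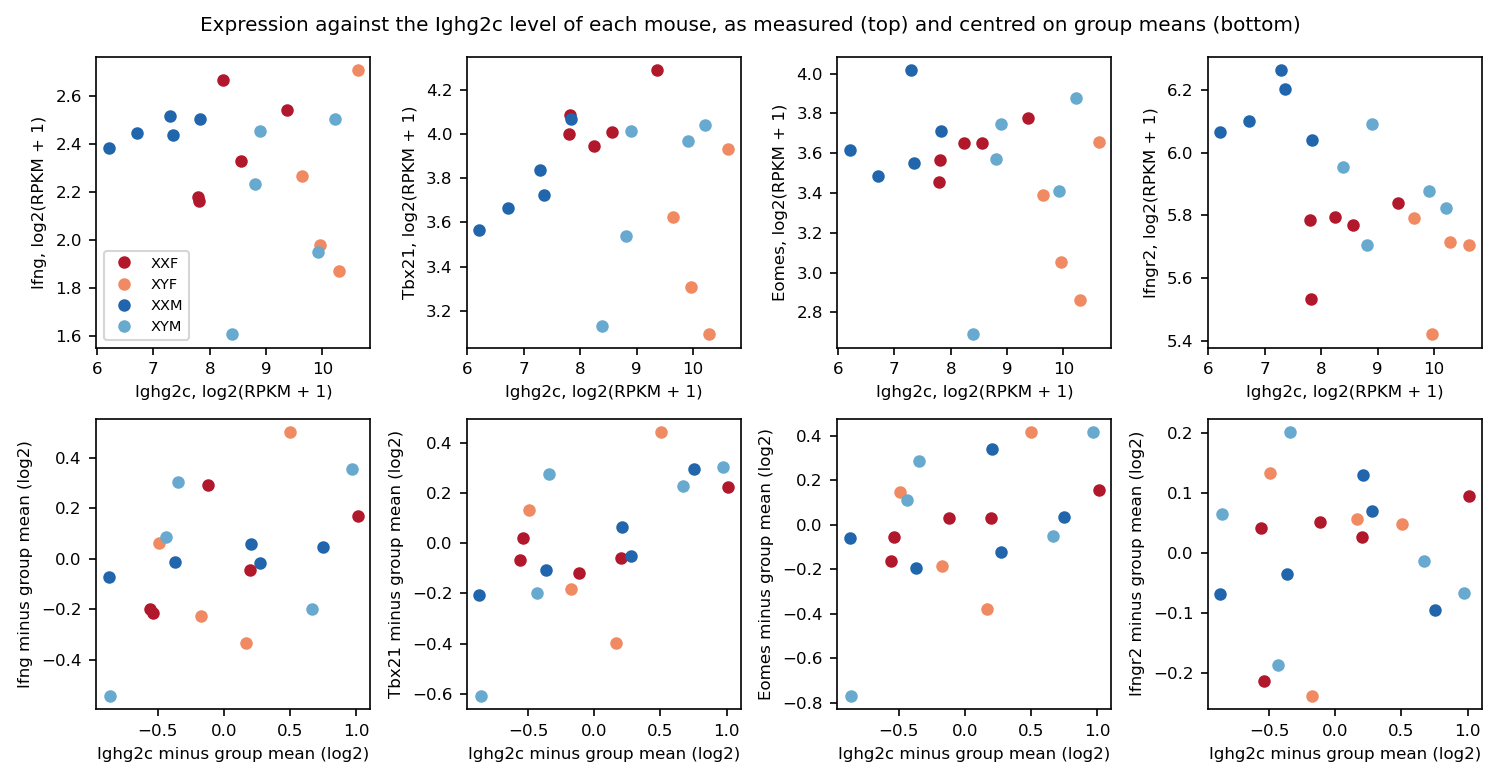
Level of Ifng, Tbx21, Eomes and Ifngr2 (vertical axes, log2(RPKM + 1)) against that of Ighg2c in the same mouse (horizontal axes), as measured in the top row and minus the group mean in the bottom row, with 1 point per mouse coloured by group. Tbx21 rises with Ighg2c after centring (r = 0.63) and has no such slope as measured (r = -0.06), while Ifngr2 has an r of -0.58 as measured and 0.10 after centring.

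Among the cytokines that induce interferon gamma and their inhibitor, 8 of 10 genes were tested, Il23a and Il2 having at most 4 and 10 reads. Il12a, which encodes the p35 subunit of interleukin 12, was called higher in XYM than in XYF mice (0.93, SE 0.13, adjusted p = 0.000927 from limma) and in males averaged over sex chromosomes (0.74). In the first of these 7 of 7 B cell and 4 of 7 dendritic cell markers were called higher and 7 of 10 T cell markers lower. The part of these cells in Il12a was not tested. Il1b, the gene of the inflammatory cytokine interleukin 1 beta, was lower in both comparisons (-1.28 and -0.81). Of the 10 myeloid markers 1 was called lower in each (Cd14 at -1.20 in the first). The myeloid list medians were -0.49 and -0.39 (all genes 0.02), and the part of myeloid cells in Il1b was not tested. Il21, a helper T cell cytokine that acts on B cells, was lower in XXM than in XYM mice (-1.01, SE 0.28, limma adjusted p = 0.0756) and in XX mice averaged over gonads (-0.72). Of the T cell markers 4 of 10 were called lower in XXM than in XYM mice (list median -0.35, all genes 0.01), and their part in Il21 was not tested. Of the 8 cytokine genes, limma called 0 between XXF and XYF mice and 0 between XXM and XXF mice (1.38% and 4.22% of all genes), and 1 and 2 had an unadjusted p under 0.05 (18.7% and 19.8%). Their median was -0.33 between XXF and XYF mice (all genes 0.06) and -0.15 between XYM and XYF mice (all genes 0.02).

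Of 11 signal transducers, all tested, Il27ra, a receptor chain for interleukin 27, was called lower in XXM than in XXF mice (-0.62, SE 0.15, adjusted p = 0.0170 from limma). Il2rb, the chain shared by the receptors for interleukins 2 and 15, was called higher in XYM than in XYF mice (0.69, SE 0.24, limma adjusted p = 0.0380). Each was the only 1 of the 11 called in its comparison, where 4.22% and 15.8% of all genes were called. Between XXM and XXF mice 10 of 10 T cell markers were called lower. Between XYM and XYF mice 7 of 10 were called lower and 2 of 10 NK cell markers higher. The part of these cells in Il27ra and Il2rb was not tested. Stat4, which transmits interleukin 12 signals, had differences of 0.43 between XXF and XYF mice and -0.09 between XXM and XYM mice and was not called. For the difference of the XX effects in females and males, 0 of the 11 were called by limma and 5 had an unadjusted p under 0.05, as did 21.0% of all genes, with a list median of 0.46 (all genes 0.02).

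Of 24 genes induced by interferon gamma, 22 were tested. In XXM compared with XXF mice, where 4.22% of all genes were called, 6 were called lower and 0 higher. Among them were Iigp1 (-1.46, SE 0.25, adjusted p = 0.00121 from limma), Igtp (-0.88), Irgm2 (-0.69) and Gbp2 (-0.89), which encode GTPases of the defence against intracellular pathogens. Also called were the chemokine gene Cxcl9 (-1.0) and the Fc receptor gene Fcgr1 (-0.86). In XYM compared with XYF mice, where 15.8% of all genes were called, Iigp1 (-1.12), Fcgr1 (-0.96), Cxcl9 (-0.78), Igtp (-0.73) and Gbp2 (-0.59) were called lower and Ciita (1.06), Irf8 (0.73) and Cd274 (0.60) higher. Ciita is the master regulator of MHC class II genes, Irf8 a factor of B cells and dendritic cells, and Cd274 the gene of the inhibitory ligand PD-L1. Between XX and XY mice averaged over gonads only Iigp1 was called (-0.76, SE 0.18, adjusted p = 0.0299), as it was between XXM and XYM mice (-0.93), and 0 of the 22 were called between XXF and XYF mice, where 1 had an unadjusted p under 0.05 (1.38% and 18.7% of all genes). The median of the list was -0.30 between XXM and XXF mice (all genes -0.01), whereas the log2 difference of Ifng itself was 0.08. In the same comparison 10 of 10 T cell markers were called lower and 4 of 7 dendritic cell markers higher, and their part in the list was not tested.

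Of the T-bet partners and targets, 14 of 14 tested, 4 were called between XXF and XYF mice, against 1.38% of all genes. Between XYM and XYF mice 0 of the 14 were called, against 15.8% of all genes. Between XXM and XYM mice 1 was called higher and 1 lower (2.96% of all genes called), and between XXM and XXF mice 1 higher and 3 lower (4.22%). Klrg1, an inhibitory receptor of mature NK and effector T cells (1.09, SE 0.20, adjusted p = 0.0130 from limma), the chemokine receptor gene Cxcr6 (1.01), the death ligand gene Fasl (0.96, SE 0.14, adjusted p = 0.00144) and the granzyme gene Gzmb (0.85) were called with higher levels in XXF mice. In males, Klrg1 was higher in XXM than in XYM mice (0.94) and Cxcr3, a chemokine receptor gene of type 1 T cells, lower (-0.69), and 4 of 10 T cell markers were called lower there too. Averaged over gonads, Klrg1 (1.02) and Gzmb (0.66) were called higher in XX mice. The XX effect on Fasl in females minus that in males was 0.96 (SE 0.19, adjusted p = 0.0877), which was the only call of the list for this difference. In XXM compared with XXF mice Cxcr6 (-1.60), Cxcr3 (-0.74) and Fasl (-0.62) were lower and Bhlhe40, a factor gene needed for cytokine production, higher (0.61), while 10 of 10 T cell markers were called lower, whose part was not tested. Averaged over sex chromosomes Cxcr6 was 0.95 lower in males. The list's median between XXF and XYF mice was 0.36 (all genes 0.06), and several of its genes are also expressed by NK cells, whose markers were higher in the same comparison.

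Of 12 genes of opposing helper programs, 9 were tested, Il13, Il17a and Twist1 having at most 3, 11 and 3 reads. Il10, the gene of an anti-inflammatory cytokine, was called between XXF and XYF mice with the lower level in XXF (-1.03, SE 0.27, adjusted p = 0.0760 from limma) and in XX mice averaged over gonads (-0.83). Bcl6, the factor of germinal center B cells and follicular helper T cells, was called higher in XYM than in XYF mice (0.97) and in males averaged over sex chromosomes (0.75). In both it was the only 1 of the 9 called, where 15.8% and 7.32% of all genes were. Of the B cell markers 7 of 7 and 5 of 7 were called higher there, and their part in Bcl6 was not tested. Gata3, the factor of type 2 helper T cells, had a difference of 0.37 between XX and XY mice averaged over gonads and was not called. Il4, the cytokine of the same helper program, had one of 0.40 (SE 0.09, limma adjusted p = 0.0251), under 1.5-fold. Between XXM and XXF mice Il4 differed by -0.51 (limma adjusted p = 0.0195), also under 1.5-fold. Il4 had only 1 to 24 reads per mouse, where the added 1 makes changes look smaller.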

How the data were processed

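RNA-seq of splenocytes from 19 mice was analysed from 1 table of the whole series. The authors mapped the reads with subread (mm10), summarized them per gene by featureCounts and deposited log2 RPKM values. Tool versions, gene annotation and the handling of strand and multiple matches were not stated. The deposited log2 values equal log2(RPKM + 1) plus 0.0001, and whole reads within 0.05 of a whole number were recovered for 21317 of 21317 genes with a read. Library sizes were 11263753 to 19962022 reads, which limits precision for genes with few reads. The highest Pearson's r between mice was 0.990 and the lowest 0.901.

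Group means were fitted by limma 3.58.1 (R 4.3.3, empirical Bayes with trend) to 14186 genes, those reaching an RPKM of 0.5 in 4 or more mice. Exact two-sided permutation tests permuted XX and XY within gonadal type, or gonads within sex chromosomes. For the difference of effects only the interaction term of limma was used, because such permutations suppose no effect in either pair of groups. Correlations with Ighg2c used 100000 resamples. Marker scores are means of log2 values centred on all mice. The read recovery, the limma fits and the permutation of correlations were tested on simulated data. Other software was scipy 1.17.1, numpy 2.4.6, matplotlib 3.10.9 and pandas 2.3.3 under Python 3.11.15. Symbols and positions came from RefSeq GRCm38.p6, which held 25275 of the listed identifiers.

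The members and gene lists were chosen with earlier results of these data known. Named genes are the members, Ighg2c and the other constant genes, the genes of the 5 pathway lists called in any comparison, the 5 genes most alike to Ifng and to Tbx21 over the mice and the 5 after centring, and the most abundant marker of each list used; Stat4, Gata3 and Il4 were added after their values were seen. Alternatives comprised other pseudocounts (0.1, 0.5), other filters (none, RPKM of 1), median ratio and quantile scaling, library sizes without immunoglobulin genes, the compared groups alone, no trend, array weights, an adjusted p of 0.05, no fold threshold, limma-voom on recovered reads, each mouse left out, and for Ighg2c no group means, its level minus that of Ighg1 or Igkc, and 2 mice left out. Leaving out XYF F9 and XYM 9 together was added after seeing the data. They were run for the 10 genes and Ighg2c, and the calls of marker and pathway genes come from 1 fit. Some planned list genes and motif letters were left out, and list counts and medians are over the genes kept. edgeR, which the authors used, was not run.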

Additional observations from a re-analysis of the deposited data

Results flagged for a closer look

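In XXF mice, Ifngr2 in XXF F1 (5.53) lay apart from the other 4, of which the nearest was 5.77, a gap of 0.774 of the range of the group. This was 1 of 44 groups looked at, the 10 genes and Ighg2c in 4 groups each, and chance flags about 1 in 20 groups. Without XXF F1 the difference of Ifngr2 between XXM and XXF mice was 0.34, against 0.39.

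In limma the term for the XX effect in females minus that in males had an unadjusted p under 0.05 for 4 of the 10 genes, as it did for 21.0% of all genes tested: Il18rap (difference of effects 1.32), Il18r1 (0.84), Il12rb2 (0.82) and Tbx21 (0.54). After adjustment over all genes limma and limma-voom called 0 of them, with adjusted p in limma of 0.166, 0.132, 0.193 and 0.233, so that the effects were not shown to differ. All 4 genes had higher means in XXF than in XYF mice. Between XXM and XYM mice Il18rap, Il18r1 and Il12rb2 had lower means in XXM, and Tbx21 differed by 0.03.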

How the results depend on the processing

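For the 10 genes and Ighg2c, the genes for which single differences were refitted, no alternative that kept the group means reversed a difference with an unadjusted p under 0.05. With no group means, the slope of Tbx21 on Ighg2c was -0.0145 (adjusted p = 0.936 from limma) and that of Eomes -0.0592 (adjusted p = 0.691), both of the other sign. With limma array weights the members called were 1 between XXF and XYF mice (260 of all 14186 genes, against 196), 2 between XXM and XYM mice (1027, against 420), 4 between XYM and XYF mice (2719, against 2236) and 4 for the difference between the XX effects in females and males (1910, against 12). Between XXM and XYM mice 1 was called under median ratio rescaling, quantile normalization and the compared groups alone, each time Il18, with 469, 435 and 121 of all genes. Without the fold threshold, 3 were called for males against females (5468 of all genes) and 1 between XXM and XXF mice (1348). Between XYM and XYF mice it gave 4 (5661 of all genes), Ifngr2 being added. Leaving out XYF F9 and XYM 9 together gave 1 for the difference of effects (Il18r1; 782 of all genes). Ighg2c was called lower in XXF than in XYF mice, and this call was lost without XXF F1, XXF F4, XXF F5 or XYF F9. Its call between XXM and XXF mice was lost without XXF F2, XXM 2 or XXM 7 and at an adjusted p of 0.05. Between XYM and XYF mice it was called in 9 of 33 alternatives. Its calls between XXM and XYM mice and in both averages held in every alternative run. The causes were not tested.

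With each mouse left out, the number called was between 0 and 2 in XXF against XYF mice (2 without XYF F7 or XYF F8, with 850 and 374 of all genes), 0 and 2 in XXM against XYM (2 without XYM 15, with 1213 of all genes, and 1 without XYF F7 or XYF F9, with 441 and 519), 0 and 1 for males against females (1 without XYF F9, with 1116 of all genes), 1 (without XYF F7) and 3 in XYM against XYF, and 0 and 3 for the difference of effects (3 without XYM 9, 2 without XXF F3 or XYM 15, 1 without XYF F8, with 1694, 1197, 808 and 749 of all genes). It was 0 throughout for XX against XY averaged over gonads, XXM against XXF mice and the slope on Ighg2c. The calls over all genes also fell. In XXF against XYF mice they were 56 without XYF F9, against 196 with all mice. In XXM against XYM mice they were 51 without XXM 2 and 64 without XYM 13, against 420. No paired analysis was possible because no replicate number is shared between groups. Array weights, the fold threshold and limma-voom gave no value for the slope, and the compared groups alone gave none for averages or the difference of effects. Few reads limit Ifng, Il12rb1 and Il12rb2.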

Other observations

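The genes most alike to Il18, Il18rap and Il12rb2 over the 19 mice were looked up after their values were seen. For Il18 they were Fcna (r = 0.94), Cmbl (0.92), Clec4n (0.90), Hpgd (0.90) and Aif1 (0.89), and Fcna led after centring on group means too (0.91). For Il18rap they were Il1rap (0.96), Nbeal2 (0.95), Cers6 (0.94), Kif3b (0.94) and Plcb2 (0.94), of which Il1rap encodes the accessory chain of the interleukin 1 receptor. After centring H6pd (0.97) and Antxr2 (0.95) led for Il18rap, followed by Il1rap (0.95). For Il12rb2 they were Itga2 (0.95), Prex1 (0.94), Pkd1 (0.94), Pcif1 (0.94) and Jak1 (0.94), and Heg1 led after centring (0.99).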
